A study of Sus scrofa domesticus with 150 samples.

Results

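The 9 genes described here encode chains of the laminin of the epidermis (LAMA3, LAMB3), the transmembrane parts of the hemidesmosome (COL17A1, ITGA6, ITGB4), the collagen of the anchoring fibrils (COL7A1) and integrin subunits of migrating cells (ITGB6, ITGAV, ITGA5). They were chosen by symbol from the 30461 genes of the count table, with the symbol taken from the name column for 3 of them (COL17A1, ITGAV, ITGA5) and from the protein match in the gene description for the other 6. Each of the 9 symbols matched a single gene. The samples came from 6 female domestic pigs of a Yorkshire mix, weighing 45 to 50 kg, each with 12 full-thickness circular wounds of 2 cm on the back that received Telfa Clear and Tegaderm dressings and no other treatment. No genetic change or test agent is named for any animal, and all animals carried wounds, so that day 0 skin is the only tissue from before healing. Day 0 is represented by 6 samples of whole excised skin, without a location. On days 1 to 7, 9, 11 and 13, 6 biopsies of 3.5 mm were taken from the wound edge and 6 from the wound center, and on days 15, 16, 19 and 21 there were 3 of each. A wound was biopsied on a single day, which gives 72 wounds with 1 edge and 1 center sample each. Animals 1, 2 and 3 were sampled on days 1, 3, 5, 7, 11, 15 and 21 and animals 4, 5 and 6 on days 2, 4, 6, 9, 13, 16 and 19, so that neighbouring days often came from different animals. The ages of the animals were not given in the sources used here.

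Basal keratinocytes, the dividing lower layer of the epidermis, are held to the basement membrane by hemidesmosomes, in which the α6β4 integrin and collagen XVII bind the epidermal laminin outside the cell and keratin filaments inside it. Below the membrane, collagen VII forms anchoring fibrils that tie it to the dermis, and loss of any of these proteins in inherited disease makes the skin blister. When skin is wounded, keratinocytes at the margin loosen these contacts, deposit this laminin on the wound bed and move over it, using integrins such as αvβ6 and α5β1 that bind fibronectin. The αvβ6 integrin, found on epithelial cells, also releases active TGF-β from its latent form.

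Total counts per sample lay between 13133379 and 24895572. Levels are given in CPM, the count of a gene scaled by the total count of its sample to a common total, and 3 counts, taken as the limit of detection, equal 0.121 to 0.228 CPM in these libraries. Counts above 0 were found in all 150 samples for 8 of the genes and in all but 8 samples for ITGB6. The labelled tissue was compared with markers of basal keratinocytes, of which 9 of 10 were found in the table (KRT14 was not found). Their mean on the log2(1 + CPM) scale was 10 to 10.47 in day 0 skin, 8.92 to 10.86 in the edge samples except day 3 edge sample 6 (3.11), and 0.80 to 6.01 in the center samples of days 1 to 11 except 3 of them. The exceptions were center sample 5 of day 1 (8.94), sample 4 of day 3 (10.03) and sample 1 of day 11 (10.17). The edge and center samples of wounds 4 and 6 of day 3 were close to each other, with a correlation over genes on the log2 scale of 0.9971 and 0.9945, the highest of the 72 wounds. Their chi-square per gene was 4.92 and 17.1, against 30.5 to 713 in the other wounds, and they were kept. Tests on days 1, 3 and 11 are given with and without the wounds of these samples, whereas the means over animals and the correlations include them.

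All coordinates are those of the deposited table, on unplaced contigs of a pig assembly whose name is not given in the sources used here. LAMA3 (ENSSSCG00025045195) lies on contig LUXX01082911.1 from 3297007 to 3549672 and LAMB3 (ENSSSCG00025073717) on LUXX01058647.1 from 8469038 to 8508857. COL17A1 (ENSSSCG00025070047) lies on LUXX01095385.1 from 1257359 to 1362769, ITGA6 (ENSSSCG00025022872) on LUXX01052728.1 from 238837 to 326598 and ITGB4 (ENSSSCG00025036998) on LUXX01052731.1 from 824933 to 859410. COL7A1 (ENSSSCG00025060009) lies on LUXX01086141.1 from 1882331 to 1914721, and the table lists its biotype as pseudogene, whereas the other 8 are listed as protein coding. ITGB6 (ENSSSCG00025031879) lies on LUXX01042425.1 from 784273 to 965676 on the minus strand, the only gene of the set on that strand. ITGAV (ENSSSCG00025070091) lies on LUXX01097947.1 from 297509 to 404431 and ITGA5 (ENSSSCG00025055937) on LUXX01048831.1 from 337910 to 361555.

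In day 0 skin the genes differed widely in their level per length, read from the deposited FPKM values (fragments scaled by gene length and library size). COL17A1 had the highest median with 225 FPKM (176 to 275, n = 6), above every sample of every other gene. ITGA6 followed with 66.2 (40.8 to 70.3), COL7A1 with 42.9 (27.6 to 56.4) and ITGB4 with 40.2 (29.5 to 52.2), and the ranges of these 3 genes overlapped. LAMB3 had 22.6 FPKM (18.5 to 26.3) and ITGAV 19.5 (18.3 to 21.1), again with overlapping ranges. LAMA3 had 10.9 (10.5 to 12.9), ITGA5 8.70 (7.84 to 12.1) and ITGB6, at 1.15 (0.931 to 1.82), the lowest level of the set. LAMA3 and ITGA5 overlapped, while ITGB6 stood below all others in each sample.

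**Figure D1:**
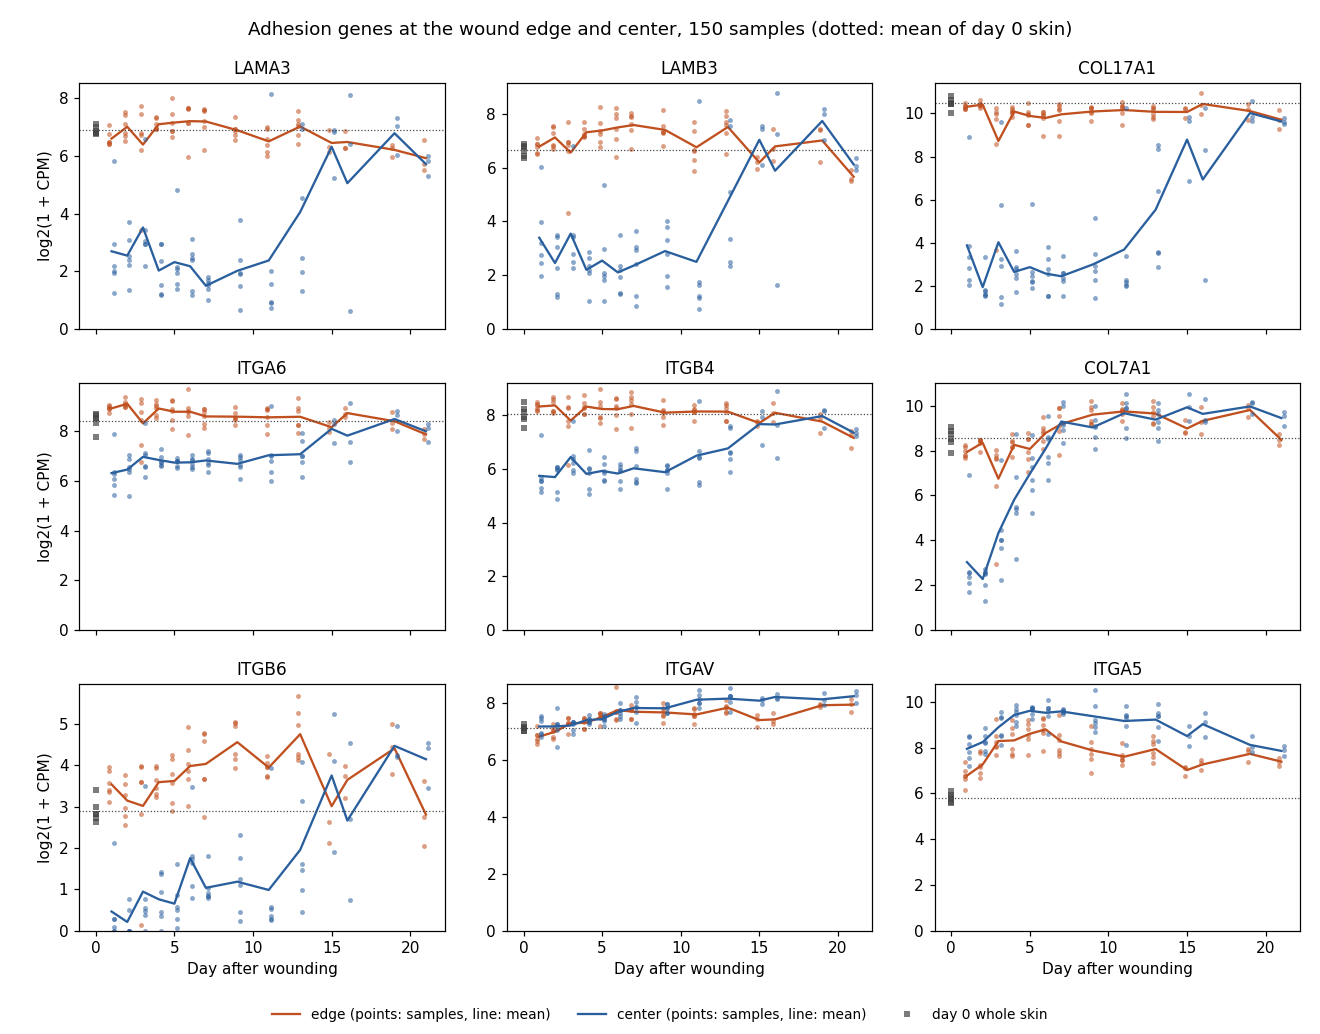
Level of each gene on the log2(1 + CPM) scale (vertical axis) against the day after wounding (horizontal axis) in 150 samples, with edge samples in orange, center samples in blue, lines through the means of each location and squares for day 0 skin. Center values of LAMA3, LAMB3, COL17A1, ITGA6, ITGB4 and ITGB6 lie below day 0 until about day 11 in nearly all samples, COL7A1 in the center passes the day 0 mean on day 7, and ITGA5 lies above day 0 in every edge and center sample.

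Edge and center were compared within each day by edgeR's quasi-likelihood test over all genes, with Benjamini-Hochberg adjusted p below 0.05 as the threshold. All 9 genes passed the filter on low counts on all 14 days. ITGB6 passed it through the edge samples alone on days 1, 2, 4, 5, 9, 11 and 13. Fewer than 6 of its center samples reached the minimum of 0.524 to 0.62 CPM then, so its 6 calls on those days had to differ and add no support. Of the 126 pairs of gene and day, 48 were higher at the edge (42 without these 6), where 12.5% of all gene and day pairs tested were, and 13 were higher in the center, where 11.0% of all pairs were. The days were nearly the same for 6 genes. LAMA3 and LAMB3 were higher at the edge on 7 days (1, 2, 4, 5, 6, 7 and 9), and COL17A1, ITGA6, ITGB4 and ITGB6 on 8 days (the same and day 13). COL7A1 was higher at the edge on days 1 and 2, ITGAV was higher in the center on days 11, 15 and 16, and ITGA5 was higher in the center on 10 days. Over the 14 days in their order, from day 1 to day 21, the share of all genes tested that were higher at the edge was 24.0, 17.8, 0, 16.4, 20.3, 10.3, 20.4, 17.3, 20.6, 16.6, 7.55, 4.21, 0 and 0.0684%, and that higher in the center 22.6, 17.7, 0, 11.4, 16.8, 3.92, 17.1, 14.3, 22.9, 11.8, 9.81, 5.87, 0 and 0%. On day 2, when 7 of the 9 genes were higher at the edge, the median log2 fold change was 4.59 over these 9 and -0.06 over all genes. On day 3 and day 19 no gene of the whole table passed the threshold in either direction by edgeR, although 1667 and 479 were below an unadjusted p of 0.05, and on day 21 the count was 10.

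As a measure over the whole time course, edge minus center was averaged over the days of each animal on the log2(1 + CPM) scale. COL17A1 had the largest difference, 5.13 ± 0.68 (SD, n = 6 animals), and was higher at the edge in 69 of the 72 wounds. LAMA3 had 3.21 ± 0.67 and LAMB3 3.00 ± 0.65, with the edge higher in 63 and 60 wounds. The other genes of the hemidesmosome had smaller differences, 1.45 ± 0.25 for ITGA6 and 1.53 ± 0.19 for ITGB4, and ITGB6 had 1.94 ± 0.37. COL7A1 had 1.15 ± 0.28, with the edge higher in 48 wounds. ITGAV was lower at the edge by a small amount, -0.25 ± 0.02, and ITGA5 by -1.10 ± 0.16, with the edge lower in all 72 wounds (the edge was higher in 0). The sign was the same in 6 of 6 animals for each of the 9 genes, and the two-sided exact sign-flip permutation test gave p = 0.0312 for each, which is the smallest that 6 animals allow. This measure was computed for the 9 genes alone. The share of all genes with the same sign in 6 of 6 animals is not known, so the count does not set these genes apart.

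**Figure D2:**
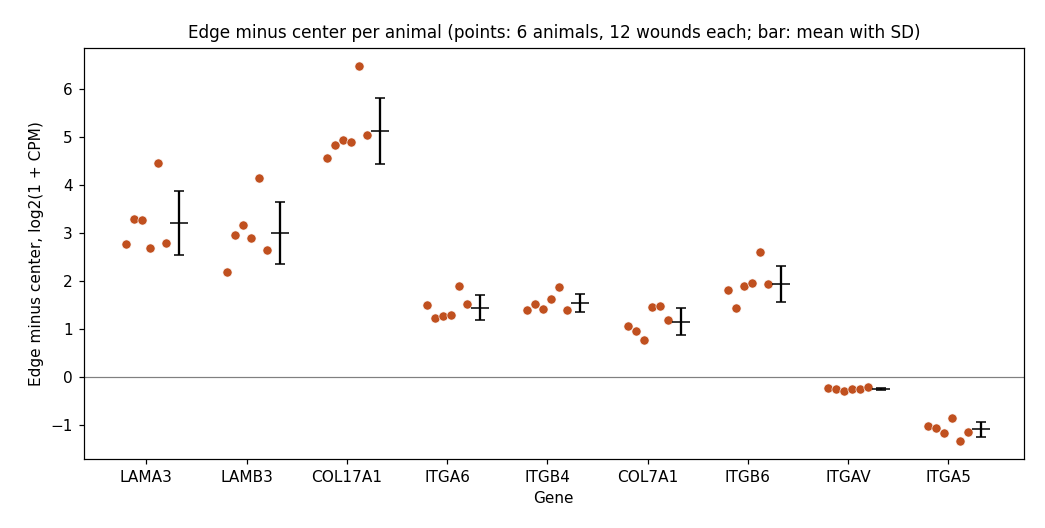
Edge minus center on the log2(1 + CPM) scale (vertical axis) for each gene (horizontal axis), with a point per animal (n = 6) and a bar for the mean with its SD. COL17A1 lies highest with animals between 4.57 and 6.48, animal 5 is the highest point for 7 genes from LAMA3 to ITGB6, and ITGAV and ITGA5 lie below 0 in all animals.

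LAMA3 and LAMB3 encode the α3 and β3 chains of the epidermal laminin. On day 2 LAMA3 was at 91.3, 124 and 182 CPM at the edge (lowest, median and highest of 6) and at 1.54, 4.49 and 12.1 CPM in the center, without overlap. The log2 fold change of edge over center was 4.59 ± 0.41 (SE, adjusted p = 2.02e-06). LAMB3 behaved alike, with 103, 135 and 187 CPM at the edge against 1.27, 5.57 and 10.4 CPM in the center and a log2 fold change of 4.72 ± 0.49 (adjusted p = 7.18e-06). The difference was widest on day 7 for LAMA3, at 6.33 ± 0.30 (adjusted p = 4.77e-08), and on day 6 for LAMB3, at 5.60 ± 0.51 (adjusted p = 2.99e-06). On each of the 7 days with a call the edge and center ranges of both genes were apart. From day 15 on no difference of LAMA3 or LAMB3 between the locations passed the threshold. LAMB3 on day 15 was at 60.6, 83.8 and 73.2 CPM at the edge and at 173, 187 and 66.6 CPM in the center, and its log2 fold change of -1.07 ± 0.39 missed the threshold (adjusted p = 0.105). On day 21 the 3 edge samples (59.1, 44.4 and 46.5 CPM) lay just below the 3 center samples (59.7, 81.9 and 65.8 CPM), with a log2 fold change of -0.46 ± 0.17 (adjusted p = 0.509).

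COL17A1 encodes collagen XVII, the transmembrane collagen of the hemidesmosome, and had the widest gap between the locations. On day 2 the edge was at 1210, 1354 and 1565 CPM and the center at 1.93, 2.24 and 9.21 CPM, a log2 fold change of 8.70 ± 0.48 (adjusted p = 3.00e-08). The center median of day 2 was 0.157% of the day 0 median. On 8 days edge and center ranges were apart and the difference passed the threshold, from 3.10 ± 0.94 on day 13 (adjusted p = 0.0259) to the value of day 2. The calls of days 1 and 13 were lost when some single wounds were left out. Without wound 1, 2, 3, 4 or 6 of day 1 the adjusted p was 0.0502 to 0.0619, whereas without wound 5 it was 2.93e-07. Center sample 5 of day 1 (484 CPM) lay far above the other center samples (3.14 to 13.6 CPM), and the edge was higher in all 6 wounds. Without wound 1 or 3 of day 13 the adjusted p was 0.0828 and 0.0543.

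ITGA6 and ITGB4 encode the subunits of the α6β4 receptor for the epidermal laminin. They differed between the locations on the same 8 days by smaller and steadier amounts, 1.60 to 2.61 on the log2 scale for ITGA6 and 1.37 to 2.69 for ITGB4. On day 4 ITGA6 was at 377, 505 and 621 CPM at the edge against 97.7, 109 and 154 CPM in the center, a log2 fold change of 2.14 ± 0.14 (adjusted p = 9.76e-08). ITGB4 on the same day was at 267, 314 and 436 CPM against 32.4, 60.5 and 103 CPM, a log2 fold change of 2.53 ± 0.25 (adjusted p = 4.11e-06). Their center levels did not approach 0 as those of COL17A1 did. The lowest center median of ITGA6 over the days was 19.2% of its day 0 median and that of ITGB4 17.6%, both on day 1. ITGA6 is known to be expressed by endothelial cells as well, and the sources of its center level were not tested. In bulk samples such as these, fewer cells of a type and less RNA per cell cannot be told apart.

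COL7A1, the gene of the anchoring fibril collagen, parted from the other epidermal genes after day 2. On day 1 its center samples were at 2.20, 4.42 and 119 CPM and on day 2 at 1.42, 4.73 and 5.52 CPM, against 246, 343 and 354 CPM at the day 2 edge, a log2 fold change of 6.38 ± 0.26 (adjusted p = 3.52e-09). From day 3 to day 7 the center median was 15.1, 42.5, 127, 285 and 579 CPM in turn, next to a day 0 median of 395 CPM (237 to 534). On those days the center median of COL17A1 lay between 4.14 and 7.53 CPM. From day 3 on no difference of COL7A1 between the locations passed the threshold, and on day 11 it was 0.03 ± 0.31 (adjusted p = 0.947) with 639, 870.5 and 1123 CPM at the edge and 375, 951 and 1473 CPM in the center. With the wound as a block in the fit, COL7A1 was higher at the edge also on day 4 (2.51, adjusted p = 0.00641) and day 5 (1.13, adjusted p = 0.00257) and lower at the edge on day 15 (-1.02, adjusted p = 0.046). Without wound 5 of day 4 the difference of that day passed the threshold too (2.64 ± 0.53, adjusted p = 0.00367).

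**Figure D3:**
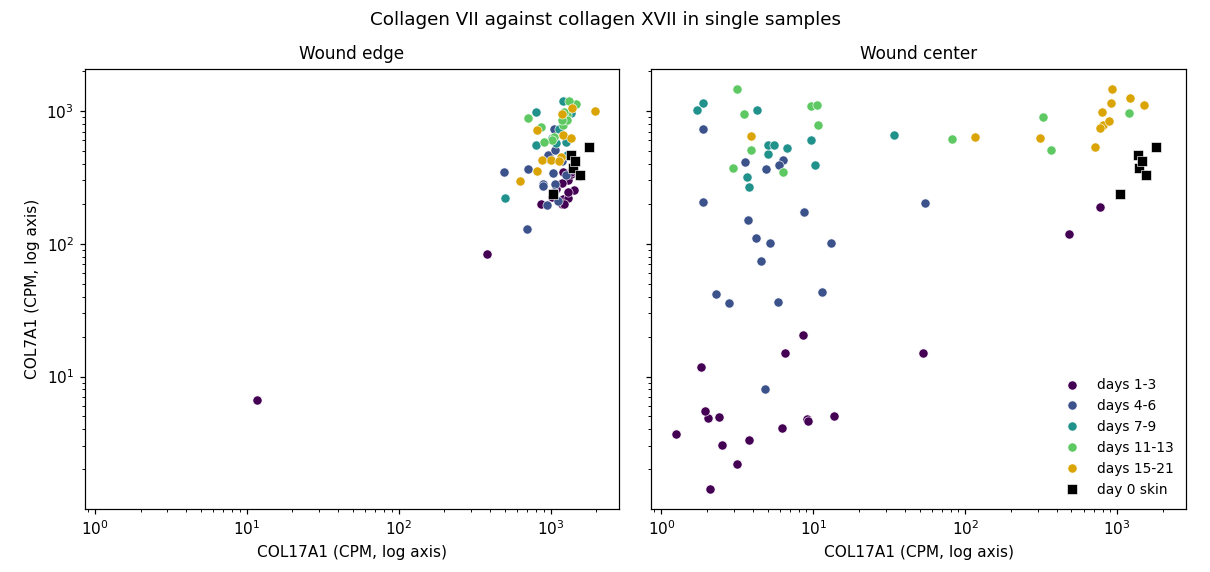
COL7A1 (vertical axis) against COL17A1 (horizontal axis), both in CPM on log axes, in single samples of the wound edge (left) and center (right), coloured by period, with day 0 skin as black squares. In the center the points move up from 1.42 to 5.52 CPM of COL7A1 on days 1 and 2 to 269 or more on days 7 to 9 while COL17A1 is at most 34.2 CPM on days 7 to 9, and most move right later (day 1 center sample 5 and day 3 center sample 4, at 484 and 776 CPM of COL17A1 and 119 and 189.8 of COL7A1, lie apart), whereas nearly all edge samples lie near the day 0 samples from the start.

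The change of the difference between the locations was itself tested, as edge minus center on days 9, 11 and 13 less edge minus center on days 1, 2 and 3, each the mean of the 2 sets of animals. COL7A1 was the only gene of the 9 below the threshold, with a change of -4.29 ± 0.57 on the log2 scale (adjusted p = 8.64e-08), and 11.4% of all genes tested changed in that direction and 16.3% in the other. The other genes had values from -2.19 ± 1.00 (COL17A1, adjusted p = 0.0937) to -0.14 ± 0.12 (ITGAV, adjusted p = 0.433). These values depend on the day 3 wounds whose edge and center samples were alike, and on replicate 1, which holds the deviating center sample of day 11. Without replicate 1 of each day the changes of COL17A1, LAMB3, LAMA3 and ITGB6 turned positive and did not pass the threshold. The fit that follows left out day 3 wounds alone and kept that day 11 sample, so its smaller differences cannot be told apart from the effect of this sample. Without day 3 wounds 4 and 6, a choice made after seeing the data, 6 genes had a smaller edge minus center on days 9 to 13 than on days 1 to 3, COL7A1 and also LAMA3 (-2.04 ± 0.79, adjusted p = 0.0445), LAMB3 (-2.16 ± 0.77, 0.0289), COL17A1 (-3.01 ± 0.92, 0.00983), ITGA6 (-0.89 ± 0.31, 0.0231) and ITGB4 (-0.88 ± 0.28, 0.013), next to 12.3% of all genes with a smaller and 16.8% with a larger value in that fit. With the wound as a block and all wounds kept, only COL7A1 passed (-4.88, adjusted p = 3.67e-09), and LAMA3 and LAMB3 turned to 0.64 and 0.51.

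ITGB6 encodes the β6 subunit, which pairs with αv on epithelial cells. On day 2 it was at 4.89, 7.74 and 12.6 CPM at the edge and at 0, 0 and 0.701 CPM in the center, where 4 of the 6 samples had no count, so that its log2 fold change of 5.31 ± 0.86 (adjusted p = 0.000356) depends on how the fit treats low counts. On day 9 the edge was at 14.2, 24 and 31.9 CPM and the center at 0.18, 1.25 and 3.95 CPM, a log2 fold change of 3.92 ± 0.62 (adjusted p = 0.000387). Edge and center ranges were apart on 7 of the 8 days with a call. On all of these days but day 7 ITGB6 passed the filter on low counts through the edge samples alone. Those ranges and calls, with the values of days 2 and 9, add no support. The ranges overlapped on day 6, where center sample 5 was at 10.2 CPM and the other center samples at 0.736 to 2.49 CPM. That sample had a mean of 12.06 on the log2(1 + CPM) scale for the skeletal muscle list (all 9 genes found), against 0.57 to 3.21 in the other 5, and of 3.10 for the basal keratinocyte list. Center samples 2 and 6 of day 2 had 11.99 and 10.49 for the muscle list, with at most 0.701 CPM of ITGB6. Center sample 5 of day 9 had 11.19, with at most 3.95 CPM. The part of muscle tissue in the result of day 6 was not tested. The call of day 6 (2.28 ± 0.60, adjusted p = 0.0204) was lost without wound 1, 2, 3 or 4, with an adjusted p of 0.0511 to 0.0879, and that of day 13 without wound 3 (2.22 ± 0.78, adjusted p = 0.063).

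ITGAV encodes the αv subunit, the partner of β6 and of other β subunits in many cell types. In the center its median varied least among the 9 genes, with values between 144 and 313 CPM over the days. It was higher in the center on 3 days, with a log2 fold change of edge over center of -0.45 ± 0.12 for day 11 (adjusted p = 0.0128), -0.75 ± 0.17 for day 15 (0.0356) and -0.76 ± 0.14 for day 16 (0.0318). On day 16 the edge samples were at 152, 166 and 199 CPM and the center samples at 279, 319 and 291 CPM, without overlap. All 3 calls were lost when single wounds were left out, for day 11 without wound 4, 5 or 6 (adjusted p = 0.0501 to 0.068), for day 15 without wound 2 or 3 (0.172 to 0.25) and for day 16 without any of the 3 wounds (0.0692 to 0.225). With the wound as a block the day 15 call was lost as well (adjusted p = 0.07).

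ITGA5 encodes the α5 subunit, which pairs with β1 to form the main fibronectin receptor, and was higher in the center on 10 days, all but days 3, 6, 19 and 21. On day 7 the edge was at 199, 282 and 689 CPM and the center at 704, 762 and 823 CPM, a log2 fold change of -1.19 ± 0.25 (adjusted p = 0.00271). On day 16 the edge samples were at 131, 158 and 173 CPM and the center samples at 349, 728 and 554 CPM, a log2 fold change of -1.80 ± 0.28 (adjusted p = 0.0242), the widest of the 14 days. The groups did not overlap on either day. The calls of days 4, 15 and 16 were lost when single wounds were left out, with adjusted p up to 0.0901, 0.173 and 0.207 in turn. On days 3, 6, 19 and 21 the center was also the higher location in every wound, by differences that did not pass the threshold. That of day 6 passed with the wound as a block (-0.75, adjusted p = 0.00388) and without wound 5 (-0.72 ± 0.18, adjusted p = 0.0144). Apart from days 3 and 11, the other calls that appeared without a single wound were ITGAV on day 1 without wound 2 (-0.47 ± 0.17, adjusted p = 0.047) and ITGA6 on day 16 without wound 1 (1.43 ± 0.26, adjusted p = 0.042).

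**Figure D4:**
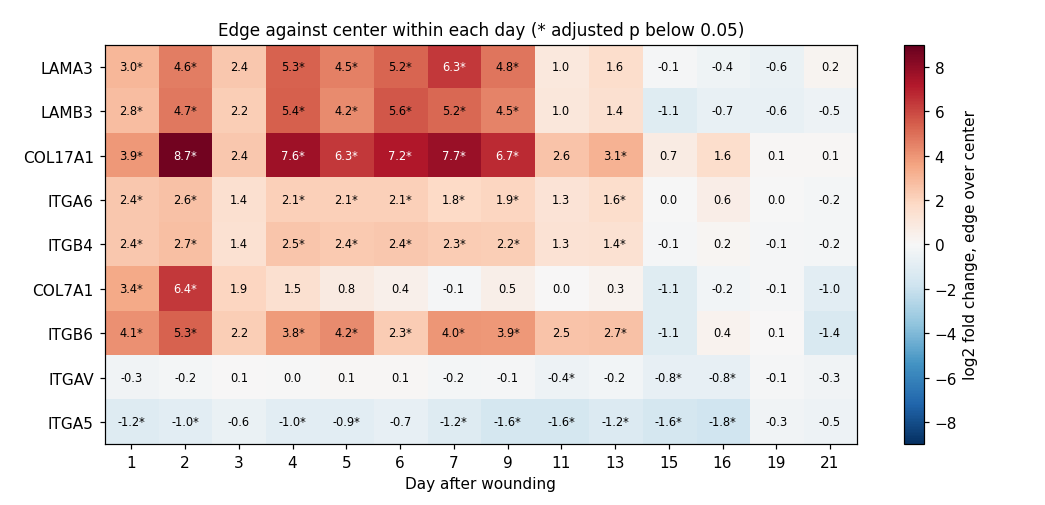
Log2 fold change of edge over center from edgeR for each gene (rows) and day (columns), coloured from blue (center higher) to red (edge higher), with an asterisk where the adjusted p was below 0.05. Red fills days 1 to 9 for LAMA3, LAMB3, COL17A1, ITGA6, ITGB4 and ITGB6, without an asterisk on day 3, COL7A1 is called on days 1 and 2 alone, and ITGA5 is blue on all days.

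On day 11 the calls of 6 genes turned on a single wound. Center sample 1 of that day, from animal 1, had 1203 CPM of COL17A1, 352 CPM of LAMB3, 285 CPM of LAMA3 and 14.2 CPM of ITGB6, whereas the other 5 center samples had 2.96 to 9.64, 0.683 to 2.37, 0.649 to 3.03 and 0.196 to 0.479 CPM. With it, no gene of the 9 was higher at the edge on day 11. Without this wound the log2 fold change of edge over center was 8.06 ± 0.46 for COL17A1 (adjusted p = 1.76e-07), 6.39 ± 0.49 for LAMB3, 6.13 ± 0.44 for LAMA3, 5.60 ± 0.29 for ITGB6, 2.12 ± 0.27 for ITGB4 and 2.06 ± 0.29 for ITGA6, all below the threshold, next to 23.0% of all genes called higher at the edge in that fit. COL7A1 stayed at 0.06 (adjusted p = 0.904). With the wound as a block and all 6 wounds kept, the same 6 genes were called on day 11, with log2 fold changes from 1.65 (ITGA6, adjusted p = 0.00826) to 7.48 (COL17A1, adjusted p = 0.00329). The share of all genes called with the block is not given here. ITGB6 passed the filter on low counts through the edge samples alone on day 11, with and without wound 1. Its calls in these 2 fits add no support.

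Day 1 center sample 5 was at 484 CPM of COL17A1, where the other 5 were at 3.14 to 13.6 CPM. The calls of day 1 were the same without its wound, and the differences were larger. Without its wound, edge over center on day 1 was 7.48 for COL17A1, 6.72 for ITGB6, 6.04 for COL7A1 and 4.84 for LAMA3 on the log2 scale, against 3.90, 4.11, 3.44 and 3.02 with it. LAMB3 had 3.97 without it, ITGA6 2.98, ITGB4 2.93 and ITGA5 -1.23, and all 8 calls stood with an adjusted p of at most 0.00135. Center over day 0 on day 1 was then -7.79 for COL17A1, -6.81 for COL7A1, -6.06 for ITGB6 and -5.19 for LAMA3, with the same calls. The other 5 center samples had 0 to 0.222 CPM of ITGB6, which passed the filter on low counts through the edge or day 0 skin alone. Its calls on day 1, with or without this wound, add no support.

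On day 3, 2 wounds had the same effect. Center sample 4 had 776 CPM of COL17A1 and edge sample 6 had 11.7 CPM, where the other center samples lay at 1.24 to 52.8 CPM and the other edge samples at 379.7 to 1216 CPM. Without wounds 4 and 6, a choice made after seeing the data, 7 genes were higher at the edge on day 3, COL17A1 by 5.79 ± 1.04 (adjusted p = 0.0084), LAMB3 by 4.54 ± 0.36 (0.000403), ITGB6 by 4.54 ± 0.40 (0.000521), LAMA3 by 4.43 ± 0.43 (0.000799), COL7A1 by 3.62 ± 0.37 (0.000924), ITGA6 by 2.09 ± 0.38 (0.00888) and ITGB4 by 2.05 ± 0.21 (0.00103), next to 9.28% of all genes. ITGA5 had -0.68 (adjusted p = 0.255) and ITGAV 0.13. Without wound 4 alone the same 7 genes passed, with adjusted p from 0.035 to 0.0489. The share of all genes called in that fit is not given here. All center samples of day 3 but sample 4 had 0 to 0.689 CPM of ITGB6, and its state median was 0.426 CPM. In both fits ITGB6 thus passed the filter on low counts mainly through the edge samples, and its calls there add no support.

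Each location was then compared with day 0 skin by the same test, day by day. The 14 comparisons of the edge and the 14 of the center share the same 6 day 0 samples. At the edge, 49 of the 126 pairs of gene and day were higher than day 0 (22.5% of all gene and day pairs tested) and 11 were lower (20.7%), and in the center 35 were higher (29.8%) and 57 lower (29.9%). Of these 57, 5 are of ITGB6 on days 1, 2, 4, 5 and 9, when it passed the filter on low counts through day 0 skin alone. These calls had to be lower and add no support, and 52 remain without them. The 11 lower pairs at the edge became 17 without day 0 sample 4, 7 without replicate 3 of each day and 3 with the animal as a block. The share of the 9 genes lower at the edge was below, and that lower in the center above, the share over all genes. Day by day in the same order, the share of all genes above day 0 at the edge was 26.4, 23.0, 27.3, 25, 29.3, 27.2, 28.1, 23.5, 23.1, 24.6, 10.2, 15.0, 18.0 and 15.3%, and that below it 23.9, 22.7, 22.8, 24.2, 26.6, 27.1, 28.1, 20.8, 23.7, 24.1, 5.78, 11.8, 16.4 and 13.0%. In the center these shares were 33.0, 30.0, 30.3, 32.8, 35.3, 34.2, 35.3, 31.1, 31.2, 30.1, 26.1, 26.8, 21.4 and 21.0% above and 32.1, 29, 30.7, 33.9, 36.3, 32.2, 35.8, 30.6, 32.0, 31.2, 27.0, 27.2, 21.1 and 20.7% below. Day 0 skin was excised whole, whereas later samples were biopsies of a location, and this difference in sampling cannot be told apart from the effect of the wound.

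At the edge, LAMB3 and ITGB6 were the epidermal genes above day 0 on most days. LAMB3 was at 80.8, 102 and 117 CPM in day 0 skin and was higher at the edge on 8 days (2, 4, 5, 6, 7, 9, 13 and 19), by up to 1.10 ± 0.23 on the log2 scale on day 13 (adjusted p = 0.00161), where the edge was at 89.8, 196 and 271 CPM and overlapped with day 0. On day 7 the edge was at 101, 214 and 258 CPM (0.99 ± 0.19, adjusted p = 0.00075). It was lower at the edge on days 15 (-0.47 ± 0.13, adjusted p = 0.0343) and 21 (-0.81 ± 0.14, adjusted p = 0.00251). With the animal as a block 4 of the 8 higher days and neither of the lower days passed the threshold, and the calls of days 2, 15 and 19 were lost when single samples were left out, with adjusted p up to 0.108, 0.123 and 0.156. LAMA3, the partner chain, was higher on 0 days and lower on days 1 (-0.36 ± 0.11, adjusted p = 0.0133), 19 (-0.42 ± 0.11, 0.0173) and 21 (-0.72 ± 0.20, 0.0249), of which day 1 alone passed with the animal as a block. The calls of days 19 and 21 were lost without wound 3 (adjusted p = 0.0521 and 0.0945), and that of day 21 also without wound 2 (0.0968).

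ITGB6 was at 5.16, 6.07 and 9.57 CPM in day 0 skin and at 16.6, 24.5 and 50.4 CPM at the edge on day 13, without overlap, a log2 fold change of 2.26 ± 0.31 (adjusted p = 7.83e-05). It was higher on 10 days, of which 7 passed with the animal as a block. On day 21 the edge was back at 11.3, 3.11 and 5.75 CPM (0.21 ± 0.36, adjusted p = 0.701). The calls of days 1, 5 and 16 were lost without wound 2, 4 and 1 respectively (adjusted p = 0.0515, 0.0515 and 0.0891). ITGAV and ITGA5, the other integrin subunits of migration, were higher at the edge on 9 and 14 days. ITGA5 on day 6 was at 229.9, 472 and 627 CPM against 47.6, 54.4 and 68.7 CPM in day 0 skin (3.01 ± 0.22, adjusted p = 3.64e-07), the largest rise of any of the 9 genes at the edge. ITGAV rose by at most 1.08 ± 0.09 (day 19, adjusted p = 2.23e-05) and was lower on day 1 (-0.37 ± 0.10, adjusted p = 0.01), a call lost with the animal as a block (0.107), which kept 6 of the 9 higher days of ITGAV and all 14 of ITGA5. LAMA3 was above day 0 without wound 6 of day 6 (0.53 ± 0.13, adjusted p = 0.00389), wound 2 of day 7 (0.54 ± 0.11, 0.0011) or wound 5 of day 13 (0.44 ± 0.14, 0.0194).

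The hemidesmosome genes stayed near their day 0 level at the edge. COL17A1 was lower on days 4, 5 and 6, by at most 0.71 on the log2 scale (-0.71 ± 0.18 on day 6, adjusted p = 0.00382), and of these day 5 alone passed with the animal as a block. ITGA6 was higher on days 1 (0.39 ± 0.12, adjusted p = 0.0194), 2 (0.55 ± 0.13, 0.00359) and 4 (0.42 ± 0.15, 0.0335), of which day 2 alone passed with the block, and the day 4 call was lost without wound 2 or 6 (0.0538 and 0.0574). ITGB4 was lower on day 21 (-0.69 ± 0.20, adjusted p = 0.024), a call lost with the block (0.0561) and without wound 1 or 3 (0.0525 and 0.109). COL7A1 was lower on day 1 (-0.75 ± 0.16, adjusted p = 0.00166) and higher on days 9, 11, 13, 16 and 19, by 1.06 to 1.47. On day 19 its edge samples were at 953, 1049 and 713 CPM, all above the 534 CPM of the highest day 0 sample (1.47 ± 0.21, adjusted p = 0.000455). The day 16 call rests on edge sample 1 (994 CPM), without which the log2 fold change was 0.54 ± 0.25 (adjusted p = 0.166), and was lost with the block (0.168). Without day 3 edge sample 6, COL7A1 (-1.11 ± 0.26, adjusted p = 0.00407) and COL17A1 (-0.74 ± 0.24, 0.0236) were below day 0 on day 3 as well, and without edge sample 2 of day 7 COL7A1 was above it on that day (0.93 ± 0.21, 0.00314).

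In the center LAMA3, LAMB3, COL17A1, ITGA6 and ITGB4 were below day 0 on every day from 1 to 9, and ITGB6 on days 1, 2, 4, 5, 7 and 9. COL17A1 was lower on 10 days, with log2 fold changes from -0.68 ± 0.16 on day 21 (adjusted p = 0.00667) to -8.90 ± 0.50 on day 2 (adjusted p = 1.88e-08). LAMA3 was lower on 9 days, down to -5.93 ± 0.18 on day 7 (adjusted p = 2.42e-11), and LAMB3 on 8 days, down to -4.80 ± 0.30 on day 4 (adjusted p = 1.34e-08). ITGA6 was lower on 9 days by at most 2.09 and ITGB4 on 10 days by at most 2.49 on the log2 scale (-2.09 ± 0.37 on day 1 and -2.49 ± 0.20 on day 2). ITGB6 was lower by up to 5.15 on day 2 (-5.15 ± 0.85, adjusted p = 0.000175), where its center samples had 0 to 16 counts and the filter was passed through day 0 skin alone, and it was lower on day 6 too with the animal as a block (-1.78, 0.0424) or without wound 5 (-1.99 ± 0.32, 0.000128). The day 3 calls of COL17A1 (adjusted p = 0.0494) and LAMB3 (0.0328) were lost when single samples were left out, with adjusted p up to 0.1 and 0.0786, and the day 21 call of ITGB4 (0.0312) likewise, up to 0.105, and with the block (0.052). Without wound 1 of day 11 all 6 genes were below day 0 on that day as well, from -1.71 ± 0.22 for ITGA6 (adjusted p = 1.94e-05) to -8.21 ± 0.40 for COL17A1 (adjusted p = 6.25e-09), next to 33.4% of all genes. In that fit ITGB6 passed the filter on low counts through day 0 skin alone, so its call adds no support. With the animal as a block and all wounds kept, COL17A1 alone of the 6 genes passed on day 11 (-7.30, adjusted p = 0.0255).

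COL7A1 crossed from below to above day 0 within the center. It was lower on days 1 to 5, from -6.76 ± 0.31 on day 2 (adjusted p = 5.47e-09) to -1.32 ± 0.47 on day 5 (adjusted p = 0.0214). On day 6 it was -0.25 ± 0.40 (adjusted p = 0.604). It was higher on days 7, 11, 13, 15, 16, 19 and 21, with 1.57 ± 0.22 on day 19 (adjusted p = 0.000298), where the center samples were at 1115, 779 and 1153 CPM, all above day 0. With the animal as a block, 3 of these 7 higher days passed, days 13, 19 and 21, and 4 of the 5 lower days. The call of day 4 was lost without wound 1, 2, 3 or 6 (adjusted p = 0.0575 to 0.0719) and that of day 7 without wound 1 or 5 (0.0536 and 0.0596).

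**Figure D5:**
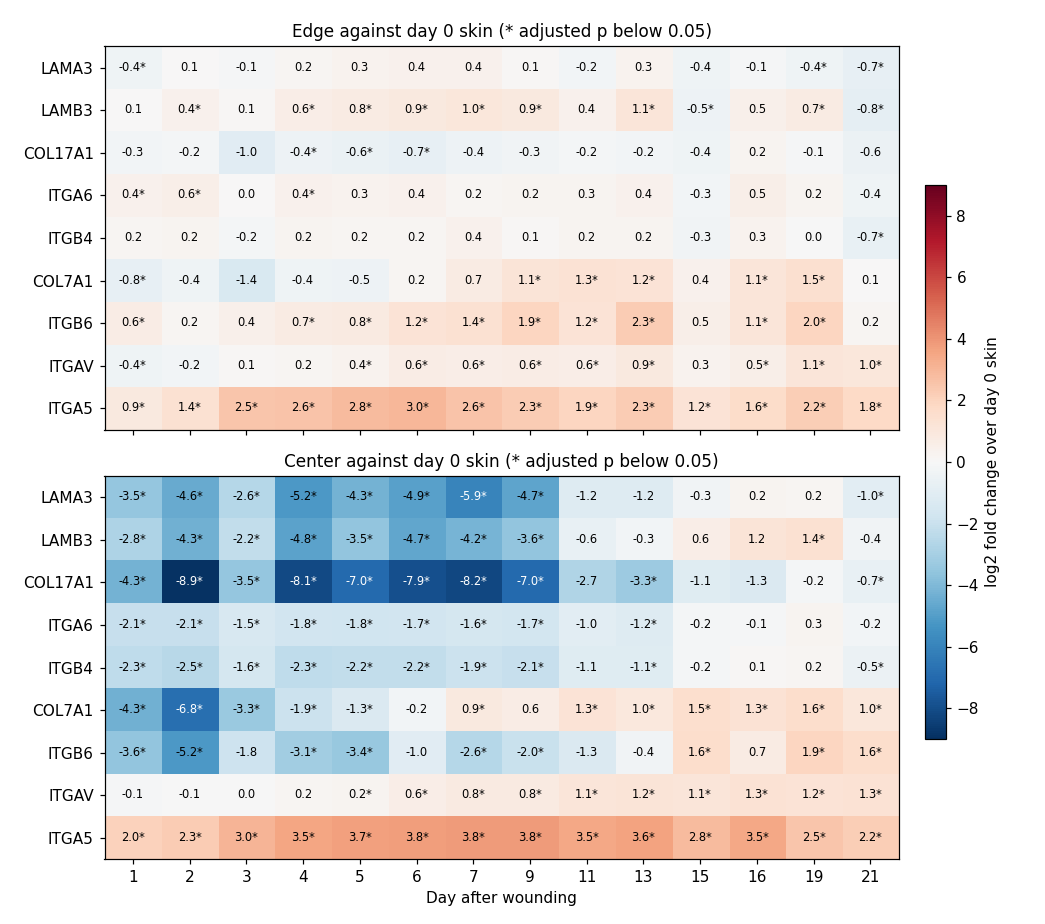
Log2 fold change over day 0 skin from edgeR for each gene (rows) and day (columns) at the edge (upper panel) and in the center (lower panel), with an asterisk where the adjusted p was below 0.05. The edge is pale except for ITGA5, ITGB6 and late COL7A1, whereas the center is blue through day 9 for LAMA3, LAMB3, COL17A1, ITGA6, ITGB4 and ITGB6 and turns from blue to red for COL7A1.

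ITGA5 was above day 0 in the center on all 14 days, by 2.04 ± 0.23 on day 1 (adjusted p = 1.02e-05) to 3.82 ± 0.33 on day 9 (adjusted p = 5.34e-07). On day 5 its center samples were at 616, 829 and 873 CPM, and the median was 1525% of that of day 0. ITGAV was above day 0 on 10 days, from day 5 on, by up to 1.32 ± 0.11 on day 21 (adjusted p = 2.00e-05), with no overlap from day 6. Its call of day 5 (0.23 ± 0.09, adjusted p = 0.0347) was lost with the animal as a block (0.122) and without wound 2 or 4 (0.0555 and 0.0636).

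The return of the epidermal genes to the center was uneven between wounds. On day 13 the 6 center samples had 82.3, 369, 10.5, 10.8, 325 and 6.33 CPM of COL17A1, all below the lowest day 0 sample (1039 CPM), and 32.9, 188, 9.04, 4.06, 214 and 4.70 CPM of LAMB3, of which samples 2 and 5 were above the highest day 0 sample (117 CPM). The same 2 samples were the highest for both genes. On day 16 center sample 2 still had 3.86 CPM of COL17A1 and 2.13 CPM of LAMB3, while samples 1 and 3 had 1208 and 309 CPM of COL17A1 and 428 and 153 CPM of LAMB3. By day 19 all 3 center samples had 800.1 to 1502 CPM of COL17A1. LAMB3 on day 19 was at 254, 287 and 128 CPM in the center, above all day 0 samples, with a log2 fold change over day 0 of 1.36 ± 0.22 (adjusted p = 0.000848). ITGB6 was above day 0 in the center on days 15 (1.59 ± 0.56, adjusted p = 0.0359), 19 (1.90 ± 0.23, 0.000135) and 21 (1.60 ± 0.28, 0.00142). Its center samples on day 21 were at 22.3, 20.6 and 10 CPM, above the 9.57 CPM of the highest day 0 sample, and the day 15 call was lost with the animal as a block (0.262) and when single samples were left out (up to 0.347). Single samples also decided other late center values. LAMB3 was above day 0 on day 15 without sample 3 (0.99 ± 0.14, adjusted p = 0.000484) and on day 16 without sample 2 (1.73 ± 0.31, 0.00219). COL17A1 was below day 0 without sample 3 of day 15 (-0.60 ± 0.18, adjusted p = 0.0208), sample 1 of day 16 (-3.12 ± 1.17, 0.0489) or sample 1 of day 19 (-0.59 ± 0.19, 0.04).

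For late healing, the edge of days 15 to 21 was compared with the edge of days 5 to 7 and the center of days 15 to 21 with that of days 11 and 13, with both sets of animals on each side. At the late edge 4 genes were lower (24.6% of all genes) and 2 were higher (21.2%). LAMB3 fell by 0.94 on the log2 scale (-0.94 ± 0.20, adjusted p = 0.000402), LAMA3 changed by -0.80 ± 0.19 (0.000987), ITGB4 by -0.43 ± 0.16 (0.0272) and ITGA5 by -1.18 ± 0.18 (1.12e-05). COL7A1 rose by 0.57 ± 0.21 (0.0277) and COL17A1 by 0.40 ± 0.16 (0.0448). The change of LAMA3 missed the threshold without replicate 3 (-0.59 ± 0.23, adjusted p = 0.0504), that of ITGB4 without replicate 1, 3 or 4 (up to 0.253), that of COL7A1 without replicate 1 or 2 (up to 0.163) and that of COL17A1 without any replicate but the third (up to 0.215). In the late center ITGB6 (2.26 ± 0.77, adjusted p = 0.0422) and ITGA6 (0.99 ± 0.34, adjusted p = 0.0422) were higher (10.2% of all genes) and ITGA5 was lower (-0.78 ± 0.19, adjusted p = 0.00645, next to 10.5%). COL17A1 had 2.17 ± 1.05 (adjusted p = 0.15), and with the animal as a block it passed the threshold (4.09, adjusted p = 0.0129), as did LAMB3 (3.19, 0.0489) and ITGB4 (0.99, 0.031). ITGA6 lost its call without any replicate but the first (up to 0.105), ITGB6 without replicate 2, 3, 4 or 6 (up to 0.106) and ITGA5 without replicate 3 (0.0566). Without replicate 1, which holds the deviating day 11 center sample, LAMA3 (2.87 ± 0.90, adjusted p = 0.0412), LAMB3 (3.28 ± 0.85, 0.0177), COL17A1 (4.16 ± 0.91, 0.00854) and ITGB4 (0.97 ± 0.28, 0.0288) passed.

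Between days 9 to 13 and days 19 to 21 the difference between edge and center shrank for 4 genes (10.6% of all genes changed in that direction), by -1.59 ± 0.40 for ITGA6 (adjusted p = 0.00529), -1.70 ± 0.39 for ITGB4 (0.0022), -3.57 ± 0.89 for ITGB6 (0.00464) and -3.60 ± 1.20 for COL17A1 (0.0344). For ITGA5, lower at the edge before, edge minus center rose by 1.06 ± 0.33 (adjusted p = 0.0239, next to 5.22%). With the wound as a block LAMA3 (-4.97, adjusted p = 0.00104) and LAMB3 (-5.24, 0.000638) passed as well. The call of COL17A1 was lost without replicate 2, 3 or 6 (up to 0.161), that of ITGB6 without replicate 3 (0.0633) and that of ITGA5 without replicate 2 or 3 (up to 0.112).

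Across the 29 states of day and location, LAMA3, LAMB3, COL17A1, ITGA6, ITGB4 and ITGB6 followed each other closely on the log2(1 + CPM) scale. Pearson's r over the 29 state means was 0.98 for LAMA3 and LAMB3 and 0.98 for ITGA6 and ITGB4, the chains that form 1 protein each. Other pairs among these 6 genes were as close or nearly so, with 0.98 for LAMA3 and COL17A1 and 0.97 for LAMB3 and ITGB4. COL7A1 had r of 0.45 to 0.66 with these 6 genes, and COL17A1 and ITGA5 had r of -0.73. The states share libraries, depth and the 6 animals, and these values are descriptions. Over the 72 edge samples the values among these 6 genes were lower, with 0.87 for LAMA3 and LAMB3 and 0.55 for LAMB3 and COL17A1. There COL7A1 had r of 0.27 (ITGA6) to 0.70 (ITGB6) with the 6 genes, with 0.69 for COL17A1, and COL17A1 and ITGA5 had -0.26.

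Marker lists moved with several of the genes. Over the 72 center samples COL17A1 had r of 0.99 with the mean of the basal keratinocyte list, LAMA3 and LAMB3 0.92 each, ITGB6 0.87, ITGB4 0.84 and ITGA6 0.83. COL7A1 had 0.40 with the basal keratinocyte list and 0.61 with the fibroblast list (all 10 genes found), and ITGA5 had -0.53 and 0.57. Over the 72 edge samples the order was reversed for COL7A1, with 0.58 for the basal keratinocyte list and 0.42 for the fibroblast list. ITGA5 had -0.17 and 0.25 there. With the myeloid list (9 of 10 genes found) ITGA5 had r of 0.32 in the center and 0.42 at the edge, and with the endothelial list (all 10 found) 0.25 and 0.63. The median of the myeloid list was 3.98 in day 0 skin, 6.47 to 7.70 in the center and 5.13 to 7.06 at the edge over days 1 to 13, and 5.17 in the center of day 21. For the endothelial list the medians were 5.35 in day 0 skin, 6.63 to 7.06 in the center and 5.08 to 6.44 at the edge over days 1 to 13. Both lists were thus higher in the center, as ITGA5 was, and their part in its differences was not tested. KRT5, a keratin of basal keratinocytes, was at 5.38 to 75.5 CPM in the center on day 7, against 3973 to 9553 CPM at the edge, and the fibroblast list had a mean of 10.22 to 11.36 there and of 10.31 to 10.55 at the edge. COL7A1 in the day 7 center was at 318 to 1155 CPM in those same samples. The share of the differences that moves with cell composition was not tested. Relative to the basal keratinocyte list (a difference of log2 levels), LAMB3 had a median of -3.64 in day 0 skin, -2.36 at the edge on day 7 and -3.80 at the edge of day 21. In the same order ITGB6 had -7.40, -6.09 and -6.16 and COL17A1 0.16, -0.10 and 0.37.

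Among 13509 genes with a name and a mean of at least 1 CPM, the genes closest to each member by Pearson's r over the 29 state means were mostly epithelial. LAMA3 was closest to SFN (0.989), which encodes the epithelial 14-3-3 protein sigma, and CDH3 (0.987), the P-cadherin of basal cells. LAMB3 was closest to the connexin genes GJB6 (0.986) and GJB2 (0.981), COL17A1 to the desmosomal genes PKP1 (0.997) and DSP (0.997), and ITGB4 to PLET1 (0.98) and to ITGA3 (0.979), the subunit of another laminin receptor. ITGA6 was closest to TNS4 (0.974) and BTBD11 (0.974), and ITGB6 to the protease gene TMPRSS11E (0.968) and the keratin KRT6C (0.958), whose reads near-identical keratin copies may share. The genes closest to COL7A1 were SERTAD4 (0.947) and FBXO2 (0.941), to ITGAV the kinase gene PRKG1 (0.961) and TMEM200A (0.947), and to ITGA5 the collagen-modifying enzyme PLOD3 (0.981) and the metalloprotease ADAM9 (0.972).

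Other genes of the same adhesion machinery were read from lists whose members were all found in the table. A list of further genes of the epidermal laminin, the hemidesmosome and anchoring was not limited to parts of the hemidesmosome. In it FERMT1, which encodes kindlin-1 of keratinocytes, was higher at the edge on 7 days by up to 3.02. PLEC, which encodes the plectin linker to keratin, was called on 0 days, with log2 fold changes of edge over center from -0.40 to 0.48. DST, which encodes the linker dystonin, was higher at the edge on 1 day and in the center on 1, and CD151, a tetraspanin partner of laminin receptors, on 1 and 2. Against day 0, DST was lower on 11 days at the edge and on 10 in the center.

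Over all genes tested, 12.5% of gene and day pairs were higher at the edge and 11.0% higher in the center, which is the background for the counts of the lists that follow. Of 12 other integrin subunits, 24 of 168 pairs were higher at the edge and 47 were lower, with a median of -0.30. ITGB1, the β1 partner of α5, was higher in the center on 10 days by up to 1.31 on the log2 scale (edge over center -1.31), and ITGA1, part of a collagen receptor, on 9. Other basement membrane genes were split, with 57 of 249 pairs higher at the edge and 66 lower and a median of -0.21. LAMC3 was higher at the edge on 11 days by up to 3.97 and below day 0 in the center on all 14, while LAMA4, a laminin chain of vessels, was higher in the center on 10 days. The 3 remaining lists leaned to the center. For ligands of the migration integrins, 1 of 154 pairs was higher at the edge and 47 lower (median -0.65), with FN1, the gene of fibronectin, lower at the edge on 9 days and TGFB1 on 7. For focal adhesion and linker genes the counts were 3 and 58 of 140 (median -0.35), with ZYX and TLN1 lower on 10 days each, and for proteases that process laminin and collagen VII they were 0 and 38 of 98 (median -0.68), with BMP1 lower on 11 days and MMP2 on 9. The median log2 fold change over all genes tested lay between -0.06 and 0.01 on the 14 days.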

How the data were processed

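RNA from 150 samples was sequenced by the provider as paired reads after poly-A enrichment, cleaned of adapter, poly-N and low-quality reads, aligned to a reference genome and counted per gene. Aligner, counting tool and genome build are not given in the sources used here. The authors deposited counts without normalization, and a table of FPKM values, which was used for levels per length and as an alternative scale. The labels' day and location gave the groups, and replicates were numbered by animal and wound letter. Wounds of 1 animal are separate samples of it, so that p-values measure the spread between wounds.

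The quasi-likelihood test of edgeR 4.0.16 was run in R 4.3.3 after filterByExpr and TMM, with Benjamini-Hochberg adjustment over all genes tested, in separate fits per day for the 2 groups compared and in single fits of 7, 6, 12 and 10 groups for late edge, late center and the 2 changes of the difference. Errors are the log2 fold change divided by the root of F. CPM, animal differences and correlations were computed in Python 3.11.15. The limit of detection covers counting error only. The pairing of edge and center within wounds was checked by the correlation of their deviations from the state means (mean r of 0.27 over 14081 genes, positive in 64 of 72 wounds), and the labels give the pairing.

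Members and gene lists were chosen with earlier results of these data known. Named genes were the 9 members, genes of a list of further epidermal laminin, hemidesmosome and anchoring genes, the 2 genes of each other list called on the most days between edge and center, and the 2 genes most similar to each member. KRT5 was named after its values were seen. Alternatives were DESeq2 1.42.0, library size without TMM, no filter, a 2-fold minimum, the wound or animal as a block, all samples in 1 fit, 1 value per animal, other scales and each replicate left out. Fits were tested on simulated data. Sequences, images and raw reads were not analysed here, and 1 item of that list is not reported here.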

Additional observations from a re-analysis of the deposited data

Results flagged for a closer look

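Within the 189 groups of 6 samples (9 genes in 21 states), 31 held a sample whose gap to its nearest neighbour, divided by the group's range, was above Dixon's critical value on the log2(1 + CPM) scale, where chance gives about 9.45. Single samples gave several of these, and for each the values below are in CPM.

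Day 11 center sample 1 was the highest of its state for LAMA3 (285), LAMB3 (352), COL17A1 (1203), ITGA6 (515) and ITGB6 (14.2). Day 3 center sample 4 was the highest for LAMA3 (94.0), LAMB3 (109.6), ITGB4 (224) and ITGB6 (10.4), and day 3 edge sample 6 was the lowest for LAMA3 (9.84), LAMB3 (18.7), COL17A1 (11.7), COL7A1 (6.66) and ITGB6 (0.101). Day 1 center sample 5 was the highest for LAMA3 (55.5), COL17A1 (484), ITGB4 (152), COL7A1 (119) and ITGB6 (3.33). These 4 samples also stand apart in the basal keratinocyte list, with a mean of 10.17, 10.03, 3.11 and 8.94.

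Day 5 center sample 1 was the highest for LAMA3 (27.5) and COL17A1 (54.2), and day 6 edge sample 6 the lowest for LAMA3 (61.9) and COL17A1 (496). COL17A1 was highest in day 2 center sample 3 (9.21). ITGB4 was lowest in day 9 center sample 3 (37.6) and COL7A1 in day 2 edge sample 3 (246). ITGB6 was highest in day 6 center sample 5 (10.2) and in day 7 center sample 3 (2.47). ITGAV was lowest in day 3 edge sample 2 (119) and day 5 edge sample 5 (144) and highest in day 6 edge sample 5 (378).

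The difference between edge and center itself changed over time, by edgeR's quasi-likelihood test of the interaction, for COL7A1 between days 1 to 3 and days 9 to 13 (-4.29) and between days 9 to 13 and days 19 to 21 for COL17A1 (-3.60), ITGA6 (-1.59), ITGB4 (-1.70), ITGB6 (-3.57) and ITGA5 (1.06).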

How the results depend on the processing

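Of 3759 values recomputed under the alternatives, 3494 kept their direction and their side of the threshold, 230 lost and 26 gained a call, and 9 changed direction. Depth limits ITGB6 in the center, where 3 counts equal 0.121 to 0.228 CPM. With a 2-fold minimum, 7 pairs (13 without it) were higher in the center than at the edge, 28 (49) were higher and 0 (11) lower at the edge than day 0, 0 (2) and 1 (4) genes were higher and lower at the late edge, and 1 (2) and 0 (1) in the late center. With all 150 samples in 1 fit, 25 pairs were higher and 2 lower at the edge than day 0, and with DESeq2 17 were lower. At the late edge the 2 higher genes became 0 by library size without TMM, 1 without a filter and 1 with 1 value per animal, and in the late center 0 without a filter and 0 with 1 value per animal. The single gene with a smaller edge minus center on days 9 to 13 became 3 with DESeq2 and 6 without day 3 wounds 4 and 6.

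With the animal as a block, 3 pairs were lower at the edge than day 0 and 5 genes higher in the late center, and the changes of single calls with a wound or animal block stand beside their results. Counted over all 14 days, the block changed no other count of calls by over 1.5 times, but single days moved more, as at the edge over center on day 11, where 6 genes were higher with the block and 0 without it, and at the edge over day 0, where 4 higher genes became 1 on days 6 and 16. Of the 6 genes of day 11, ITGB6 passed the filter on low counts through the edge samples alone. Under the wound block LAMB3 and LAMA3 turned to 0.51 and 0.64 for the change from days 1 to 3 to days 9 to 13. Leaving out single replicates moved the same change from -3.04 to 0.64 for COL17A1, from -2.04 to 0.94 for LAMB3, from -2.02 to 0.81 for LAMA3 and from -1.91 to 0.30 for ITGB6, each time with the positive value, which did not pass the threshold, arising without replicate 1. It moved COL7A1 in the late center from -0.05 to 0.35 and ITGAV for the change to days 19 to 21 from -0.02 to 0.24. By library size without TMM, ITGAV at the late edge was -0.03. Beyond the samples named beside each result, the cause of these changes was not tested.

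Leaving out single samples gave 44 to 53 pairs higher at the edge than in the center and 8 to 13 lower, 46 to 50 higher and 7 to 17 lower at the edge than day 0, and 33 to 37 higher and 54 to 63 lower in the center than day 0. The 17 pairs lower at the edge than day 0 arose without day 0 sample 4. It gave 0 to 2 genes higher and 2 to 5 lower at the late edge, 0 to 6 higher and 0 to 1 lower in the late center, 0 to 0 and 1 to 3 for the change to days 9 to 13, and 0 to 1 and 2 to 6 for the change to days 19 to 21. Leaving out single animals gave mean differences of 2.96 to 3.32 for LAMA3, 2.77 to 3.16 for LAMB3, 4.86 to 5.24 for COL17A1, 1.36 to 1.49 for ITGA6, 1.47 to 1.56 for ITGB4, 1.08 to 1.23 for COL7A1, 1.80 to 2.04 for ITGB6, -0.26 to -0.24 for ITGAV and -1.15 to -1.05 for ITGA5.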
